A study of Mus musculus with 8 samples.

Results

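Genes that act in mitosis (40 of 49671 gene rows in the deposited files) were followed in RNA sequencing counts from mouse samples that the labels call adipocytes. They were taken by name from a list of spindle, checkpoint, centromere, kinesin, cyclin and cytokinesis genes that peak in the G2/M part of the cell cycle, and all 40 were matched to 1 gene each in the GRCm38 annotation. All 40 passed the filter on low counts, with a lowest count of 454 in any library. The list was chosen with earlier results of these data known.

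The series compared 4 samples from mice labelled BMPR2 DELX, a mutant of the type II bone morphogenetic protein receptor gene, with 4 labelled ROSA, the control. The labels give adipocytes as the source of both groups and name no other treatment, and they do not state the strain, age, sex, driver of the allele or whether the samples came from separate animals. P-values therefore measure the spread between samples, which may be technical. Total counts ran from 28799445 to 43684785 per library. Bmpr2 itself did not pass the test, with 211 ± 17.6 CPM in the mutant and 197 ± 17.0 CPM in the control libraries (SD, n = 4), and a total count does not show which exons were present. The source label was weakly met: of 9 adipocyte marker genes, 5 had at most 3 counts in any library, including those for leptin and perilipin. Of the 9, 2 reached 1 CPM in at least 1 library, whereas all 8 fibroblast and all 6 smooth muscle markers did. The fibroblast marker Lum did so in BMPR2 DELX 1 only, at 1.32 CPM.

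Cells entering mitosis activate the kinase CDK1 through A- and B-type cyclins, build a spindle with motor proteins and Aurora and Polo-like kinases, and hold chromosome separation under a checkpoint until every kinetochore is attached. The anaphase-promoting complex with its activator CDC20 then marks cyclin B and securin for degradation, and cytokinesis follows. Transcripts of these genes accumulate together in late S and G2 phase under the DREAM and MYBL2-MuvB complexes and FOXM1, so in bulk RNA their level rises with the share of cells that are dividing. In a bulk sample, more dividing cells and more RNA per dividing cell cannot be told apart.

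Promoter elements of the members are shown first, and any link between these elements and the values below was not tested. MuvB complexes bind the cell cycle genes homology region, which most often reads TTTGAA, and NF-Y binds CCAAT boxes upstream of it. RefSeq promoter windows (GRCm38.p6, 250 bases before to 50 after an annotated start) were held for 34 of the 40 members, in 37 windows. TTTGAA, searched on both strands, was in the windows of 27 of these 34 genes (79.4%), against 20.2% of all 27025 genes with a window. CCAAT, searched on both strands, was in those of 29 genes (85.3%), against 41.1% of all, and a TTTGAA and a CCAAT match shared a base in 1 member, Cdca8, as did 1 pair of CCAAT matches on opposite strands, in Ube2c. Both were found in 25 genes (73.5%), against 7.97% of all. Nusap1, Mad2l1 and Birc5 held neither in these windows, and Ccnb1, Cenpe, Nek2 and Bub1 held CCAAT without TTTGAA. The end of the window was found in a GENCODE M21 transcript of the gene for 25 of the 34 members. Mad2l1, Birc5 and Kif2c were among those for which it was not found. A match of 5 or 6 letters is a description of the window, not evidence of binding.

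The 3 members with the smallest p among called genes whose window holds TTTGAA were Kif2c, Plk1 and Cdc20, and Ccnb2 was added after its CCAAT boxes were seen. Each is shown 5′ to 3′ on the strand of the gene from 120 bases before its start up to the start, with TTTGAA and CCAAT, on either strand, in capitals. They lie at chr4:117178773-117178892, minus strand, for Kif2c, chr7:122159315-122159434, plus strand, for Plk1, chr4:118437344-118437463, minus strand, for Cdc20 and chr9:70421555-70421674, minus strand, for Ccnb2.
Kif2c: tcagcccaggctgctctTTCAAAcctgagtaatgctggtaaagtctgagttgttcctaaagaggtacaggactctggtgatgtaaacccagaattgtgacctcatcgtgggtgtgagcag
Plk1: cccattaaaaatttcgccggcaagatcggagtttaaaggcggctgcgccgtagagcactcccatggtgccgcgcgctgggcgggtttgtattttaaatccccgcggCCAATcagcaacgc
Cdc20: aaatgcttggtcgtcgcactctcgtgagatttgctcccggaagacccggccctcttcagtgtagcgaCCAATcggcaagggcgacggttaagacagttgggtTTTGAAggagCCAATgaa
Ccnb2: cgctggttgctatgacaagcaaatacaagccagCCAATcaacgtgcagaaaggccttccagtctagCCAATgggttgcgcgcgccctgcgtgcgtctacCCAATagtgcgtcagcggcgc
Kif2c has no CCAAT box in its window and its TTTGAA stands on the opposite strand, written TTCAAA. Its RefSeq start lies 3867 bases inside the longer gene of GENCODE M21, so this stretch is not upstream of every transcript. The end of its window was not found in any GENCODE M21 transcript of Kif2c. It was therefore not shown that the stretch lies upstream of one of them. Cdc20 holds TTTGAA between a pair of CCAAT boxes just before the start, and Ccnb2 holds 3 CCAAT boxes spaced 33 bases apart. In Plk1 and Ccnb2 a TTTGAA lies just after the start, at bases 31 to 36 and 5 to 10. Ccnb2 has another at -167 to -162, upstream of the printed stretch. These short stretches (chr7:122159455-122159479, plus strand, and chr9:70421530-70421554, minus strand) show the matches after the start.
Plk1 after the start: cagcgccgcgTTTGAAttcggggag
Ccnb2 after the start: ggtaTTTGAAtcgcggaccgggcgg

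Mitotic genes were modestly higher in BMPR2 DELX. Each difference is the log2 ratio of the mutant to the control group, given with its standard error (n = 4 in each group). Adjusted p-values come from the edgeR quasi-likelihood test over 14887 genes, and a gene is called at an adjusted p below 0.05. Of the 40 members, 9 were called higher (22.5%), where 3.96% of all genes tested were called higher. None (0) was called lower by edgeR, DESeq2 or voom, where edgeR called 5.15% of all genes lower, and 31 did not pass. All 40 fold changes were positive, against 50.7% of all genes, and 27 members had an unadjusted p below 0.05 (67.5%, against 26.3% of all genes). The median log2 fold change was 0.36 over the members and 0.005 over all genes, and single fold changes ran from 1.02 for Bub3 to 1.57 for Kif2c. Since these genes vary together, the 40 signs are not independent of each other.

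One library of each group carried much of the spread. BMPR2 DELX 4 was the lowest BMPR2 DELX library for 40 of 40 members, as it was for 21.8% of all genes, and ROSA 3 was the highest ROSA library for 36 of 40, as it was for 27.0% of all genes. BMPR2 DELX 1 was the highest BMPR2 DELX library for 32 of 40 members, and its share over all genes was not computed. On the log2 scale BMPR2 DELX 4 lay below the mean of the other BMPR2 DELX libraries by a median of 0.50 over the members (difference -0.50, range -0.76 to -0.07). The same difference had a median of 0.01 over 14870 genes with counts in every library. ROSA 3 lay above the other ROSA libraries by a median of 0.21. BMPR2 DELX 4 fell within the ROSA range for 23 members, below every ROSA library for 11 and above every ROSA library for 6. In those 6 (15.0%) the groups did not overlap, as in 8.32% of all genes with BMPR2 DELX above. BMPR2 DELX 1 to 3, set apart here after their values were seen, lay above every ROSA library for 36 of 40 members (90.0%), against 11.0% of all genes. BMPR2 DELX 4 was also the deepest library, with 43684785 counts, and had the lowest share of unassigned reads (unmapped, multimapping, ambiguous or outside genes), 14.7%. The shallowest libraries of their groups were BMPR2 DELX 1, with 28799445 counts, and ROSA 3, with 30312841 counts. The part of these differences in the mitotic values was not tested.

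**Figure D1:**
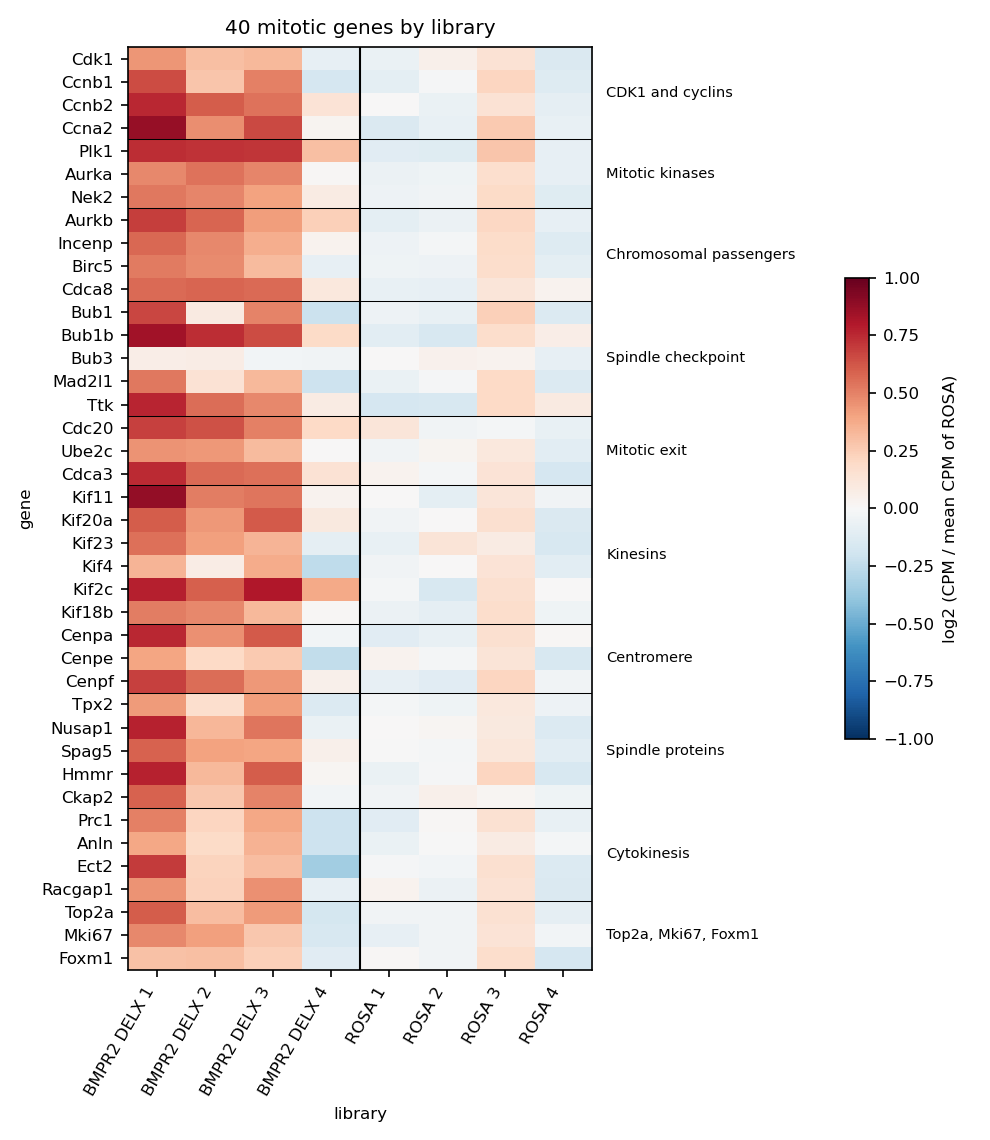
Log2 ratio of each library's CPM to the mean CPM of the 4 ROSA libraries (colour) for 40 mitotic genes (rows, by role) in 8 libraries (columns). BMPR2 DELX 1 to 3 are red for nearly all genes, BMPR2 DELX 4 is near white, and Bub3 is near white throughout.

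The number of calls moved with these libraries. Without BMPR2 DELX 4, edgeR called 33 of 40 members higher (82.5%, with 3.16% of all genes called higher in that fit), and these held all 9 of the calls made with every library. BMPR2 DELX 4 was the lowest of its group for every member, so leaving it out raises each mutant mean. This fit is singled out here and below after those values were seen. Leaving out any other BMPR2 DELX library left 3 to 5 calls. Without ROSA 3 there were 10 calls, and without ROSA 1, ROSA 2 or ROSA 4 there were 3, 1 and 5. Kif2c alone was called in each of the 8 fits that left out 1 library. The median log2 fold change stayed between 0.29, without BMPR2 DELX 1, and 0.47, without BMPR2 DELX 4, in those fits. DESeq2 called 21 of 40 (52.5%, where it called 7.19% of all genes higher). ROSA 1 had the highest share of unassigned reads, 22.0%, and ROSA 1 and ROSA 2 were the most alike pair of the 8 libraries (Pearson r = 0.993 across genes, which are not independent replicates). Without both, a setting chosen after seeing the data, 0 members were called by edgeR, 12 had an unadjusted p below 0.05, and the median was 0.36, in a fit that called 0.415% of all genes higher.

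**Figure D2:**
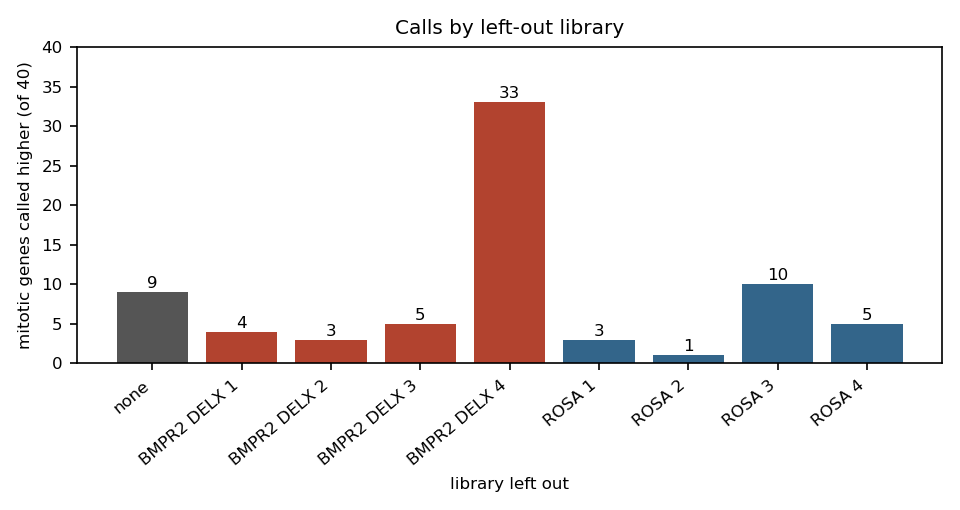
Number of the 40 mitotic genes called higher in BMPR2 DELX (bars, edgeR adjusted p below 0.05) with no library left out and with each library left out in turn. The count is 9 with every library, 33 without BMPR2 DELX 4 and 1 without ROSA 2.

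Among the kinases and cyclins that drive entry into mitosis, 2 of 7 were called, Plk1 and Ccnb2. Plk1, the Polo-like kinase of centrosome maturation and spindle assembly (ENSMUSG00000030867, GRCm38 chromosome 7, 122159439 to 122169873), had 76.2, 75.6, 75.1 and 56.2 CPM in BMPR2 DELX 1 to 4 and 42.1, 42.0, 55.4 and 43.1 CPM in ROSA 1 to 4. The groups did not overlap, but BMPR2 DELX 4 and ROSA 3 were nearly level. Plk1 rose by 0.63 ± 0.12 (edgeR adjusted p 0.016). Ccnb2, a B-type cyclin (ENSMUSG00000032218, GRCm38 chromosome 9, 70407692 to 70421547), had 46.3, 41.8, 39.9 and 30.1 CPM in BMPR2 DELX 1 to 4 and 27.5, 26.2, 30.3 and 25.7 CPM in ROSA 1 to 4. BMPR2 DELX 4 stood just below ROSA 3 and above the other ROSA libraries, and the gene rose by 0.53 ± 0.12 (edgeR adjusted p 0.028). The call of Plk1 was lost without ROSA 2, and that of Ccnb2 in 6 of the 8 fits.

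The other cyclin and CDK genes had positive values that did not pass with all libraries. Cdk1, the catalytic subunit, had 95.4, 86.6, 87.9 and 66.4 CPM in BMPR2 DELX 1 to 4 and 67.2, 72.8, 78.0 and 63.7 CPM in ROSA 1 to 4. BMPR2 DELX 4 lay within the ROSA range, and the log2 fold change was 0.26 ± 0.11 (edgeR adjusted p 0.17). Ccnb1, the main mitotic cyclin, had 73.5, 56.7, 66.2 and 41.5 CPM in BMPR2 DELX 1 to 4 and 43.8, 46.3, 54.1 and 42.8 CPM in ROSA 1 to 4. BMPR2 DELX 4 was lower than every ROSA library for Ccnb1, and the log2 fold change was 0.35 ± 0.16 (edgeR adjusted p 0.21). Near-identical processed pseudogenes of Ccnb1 are annotated, among them Ccnb1-ps with up to 16 counts in a library, so reads of Ccnb1 may be lost or shifted and its value is uncertain. Ccna2, cyclin A2 of S and G2 phase, had 0.54 ± 0.17 (edgeR adjusted p 0.078), the Aurora kinase of spindle poles Aurka 0.40 ± 0.12 (edgeR adjusted p 0.062) and the centrosome kinase Nek2 0.38 ± 0.11 (edgeR adjusted p 0.052). Without BMPR2 DELX 4 all 7 of these genes were called, with log2 fold changes from 0.35 for Cdk1 to 0.73 for Plk1. Cdk1, Ccnb1, Ccna2 and Aurka were not called in any other fit that left out 1 library.

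The chromosomal passenger complex places Aurora B at centromeres and then at the spindle midzone, where it corrects attachments and starts cleavage, and 2 of its 4 genes were called. Aurkb, its kinase (ENSMUSG00000020897, GRCm38 chromosome 11, 69045647 to 69051664), had 29.9, 27.8, 24.8 and 21.9 CPM in BMPR2 DELX 1 to 4 and 17.4, 17.9, 21.5 and 17.5 CPM in ROSA 1 to 4. The groups did not overlap, with BMPR2 DELX 4 just above ROSA 3, and Aurkb rose by 0.49 ± 0.11 (edgeR adjusted p 0.026). Cdca8, the borealin subunit (ENSMUSG00000028873, GRCm38 chromosome 4, 124918465 to 124939311), had 44.5, 45.1, 44.6 and 32.3 CPM in BMPR2 DELX 1 to 4 and 28.5, 28.4, 32.6 and 30.8 CPM in ROSA 1 to 4. BMPR2 DELX 1 to 3 were level with each other, BMPR2 DELX 4 fell just below ROSA 3, and Cdca8 rose by 0.47 ± 0.11 (edgeR adjusted p 0.029). The scaffold Incenp had 0.38 ± 0.11 (edgeR adjusted p 0.067) and the survivin gene Birc5 0.32 ± 0.12 (edgeR adjusted p 0.13). The calls of Aurkb and Cdca8 were each lost in 5 of 8 fits without 1 library.

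Spindle checkpoint genes were uneven. Bub1b, which encodes BUBR1 of the complex that inhibits CDC20 (ENSMUSG00000040084, GRCm38 chromosome 2, 118598211 to 118641591), had 58.7, 54.5, 51.5 and 37.4 CPM in BMPR2 DELX 1 to 4 and 30.4, 29.3, 36.9 and 34.2 CPM in ROSA 1 to 4. BMPR2 DELX 4 was just above ROSA 3 and far below the other BMPR2 DELX libraries, and Bub1b rose by 0.63 ± 0.14 (edgeR adjusted p 0.023), with the call lost without BMPR2 DELX 2, ROSA 1 or ROSA 2. Ttk, the kinase MPS1 that starts checkpoint signalling, had 0.49 ± 0.14 (edgeR adjusted p 0.061), and Bub1, the kinetochore kinase, had 0.30 ± 0.18 (edgeR adjusted p 0.33). Mad2l1, the checkpoint protein MAD2, had 0.22 ± 0.14 (edgeR adjusted p 0.36), and a pseudogene copy makes its value uncertain. Bub3, the adaptor of BUB1 and BUBR1, stood apart from the rest, with 91.3, 92.0, 85.7 and 85.2 CPM in BMPR2 DELX 1 to 4 and 87.6, 89.6, 89.1 and 82.4 CPM in ROSA 1 to 4. Its libraries were intermixed within a narrow range, and the log2 fold change was 0.02 ± 0.06 (edgeR adjusted p 0.84).

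Of the 3 genes grouped under mitotic exit 2 were called, Cdc20 and Cdca3, although Cdca3 is described for mitotic entry. Cdc20, the activator of the anaphase-promoting complex and target of the checkpoint (ENSMUSG00000006398, GRCm38 chromosome 4, 118432901 to 118437352), had 94.3, 91.3, 83.1 and 67.4 CPM in BMPR2 DELX 1 to 4 and 63.8, 57.4, 57.9 and 55.7 CPM in ROSA 1 to 4. The groups did not overlap, and ROSA 1, not ROSA 3, was the highest control. Cdc20 rose by 0.52 ± 0.10 (edgeR adjusted p 0.017), and the call was lost only without ROSA 2 among the fits that left out 1 library. An annotated pseudogene copy of Cdc20 had at most 3 counts. Cdca3, which takes part in the degradation of WEE1 at mitotic entry (ENSMUSG00000023505, GRCm38 chromosome 6, 124829547 to 124833701), had 29.0, 25.5, 25.3 and 19.0 CPM in BMPR2 DELX 1 to 4 and 17.7, 17.0, 19.0 and 15.3 CPM in ROSA 1 to 4. BMPR2 DELX 4 and ROSA 3 were nearly level, and Cdca3 rose by 0.52 ± 0.12 (edgeR adjusted p 0.032), with the call lost in 6 of 8 fits. Ube2c, the ubiquitin-conjugating enzyme of the anaphase-promoting complex, had 0.31 ± 0.10 (edgeR adjusted p 0.078).

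Kinesins gave the largest fold change of the members. Kif2c, the microtubule-depolymerizing kinesin MCAK of centromeres (ENSMUSG00000028678, GRCm38 chromosome 4, 117159639 to 117182639), had 46.0, 40.6, 46.8 and 34.8 CPM in BMPR2 DELX 1 to 4 and 26.4, 24.0, 29.9 and 26.8 CPM in ROSA 1 to 4. The lowest BMPR2 DELX library stood clear of ROSA 3. Kif2c rose by 0.65 ± 0.11 (edgeR adjusted p 0.008), and by 0.60 to 0.73 in the fits that left out 1 library. Kif20a, a kinesin of the spindle midzone (ENSMUSG00000003779, GRCm38 chromosome 18, 34624613 to 34633277), had 126, 112, 127 and 88.7 CPM in BMPR2 DELX 1 to 4 and 81.0, 82.9, 92.8 and 74.9 CPM in ROSA 1 to 4. BMPR2 DELX 4 lay under ROSA 3, and Kif20a rose by 0.45 ± 0.11 (edgeR adjusted p 0.04), with the call lost in 6 of 8 fits. Kif11, the motor that separates spindle poles, had 0.52 ± 0.15 (edgeR adjusted p 0.06), and Kif18b, a depolymerizing kinesin of astral microtubules, had 0.34 ± 0.11 (edgeR adjusted p 0.088). Kif23, the motor of the centralspindlin complex, had 0.32 ± 0.13 (edgeR adjusted p 0.15). Kif4, a chromosome-bound kinesin on chromosome X, had 0.15 ± 0.13 (edgeR adjusted p 0.48) and was lowest of all libraries in BMPR2 DELX 4.

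**Figure D3:**
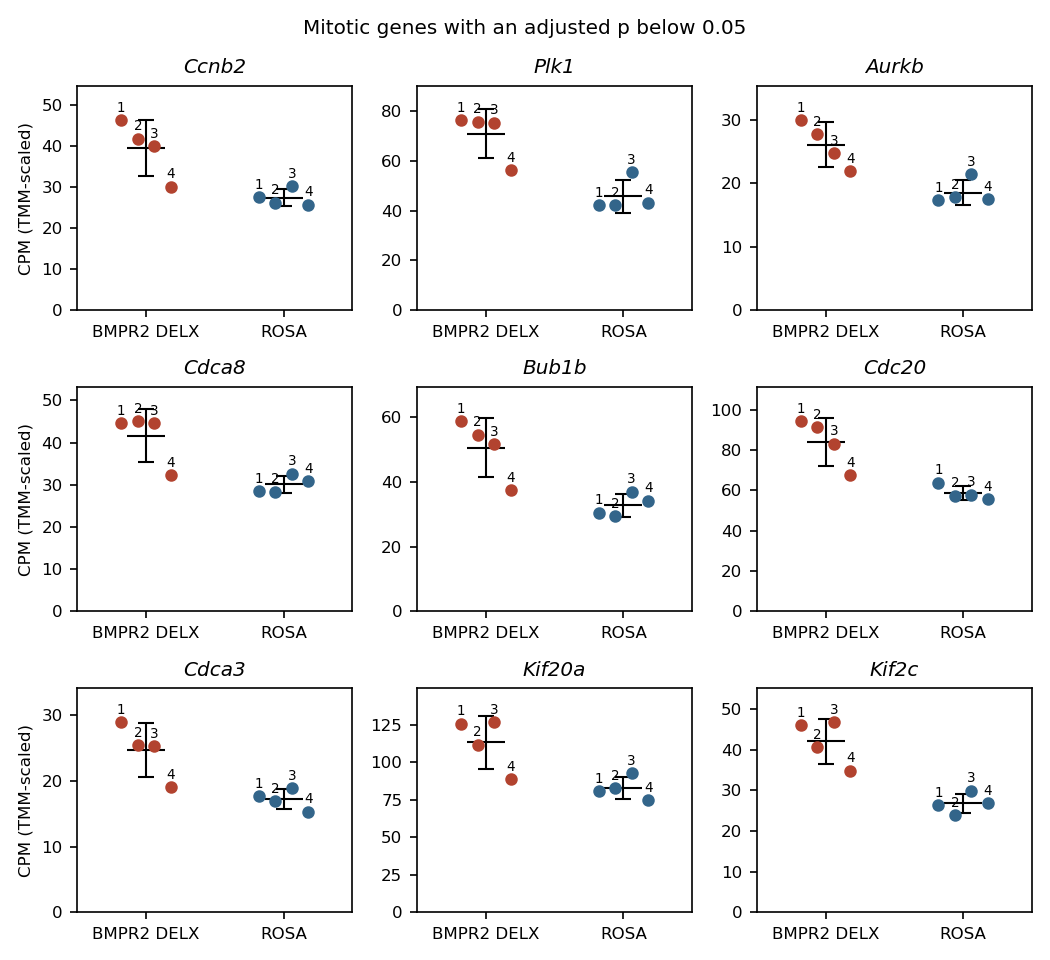
CPM after TMM scaling in each library (points, numbered by replicate) for the 9 mitotic genes with an adjusted p below 0.05, with the group mean and SD (bars, n = 4). BMPR2 DELX 4 is the lowest BMPR2 DELX library in every panel, and 6 genes have no overlap between the groups (Plk1, Aurkb, Bub1b, Cdc20, Cdca3 and Kif2c).

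Centromere genes and spindle proteins gave no call with all libraries by edgeR, with 2 of 3 and 4 of 5 at an unadjusted p below 0.05, 2 and 2 called by DESeq2, and 2 and 5 called by edgeR without BMPR2 DELX 4. No gene of either list was called in any other fit that left out 1 library. Cenpf, a large kinetochore protein of G2 and mitosis, had 64.5, 59.2, 54.2 and 41.6 CPM in BMPR2 DELX 1 to 4 and 37.8, 37.1, 46.5 and 39.1 CPM in ROSA 1 to 4. BMPR2 DELX 4 lay within the ROSA range, and the log2 fold change was 0.45 ± 0.13 (edgeR adjusted p 0.06). Cenpa, the centromeric histone H3 variant, had 0.48 ± 0.15 (edgeR adjusted p 0.075), and the kinetochore motor Cenpe had 0.17 ± 0.13 (edgeR adjusted p 0.42). Spag5, which encodes the spindle protein astrin, had 38.9, 34.1, 34.0 and 26.7 CPM in BMPR2 DELX 1 to 4 and 25.8, 25.6, 28.0 and 24.0 CPM in ROSA 1 to 4. BMPR2 DELX 4 again stood between ROSA 1 and ROSA 3, and the log2 fold change was 0.37 ± 0.11 (edgeR adjusted p 0.059). Of the others, the microtubule-bundling Nusap1 had 0.42 ± 0.15, the hyaluronan-mediated motility receptor Hmmr 0.45 ± 0.15, the cytoskeleton-associated Ckap2 0.35 ± 0.12 and the Aurora A activator Tpx2 0.24 ± 0.12.

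Cytokinesis genes had smaller fold changes, with a median of 0.26 over 4 genes. None (0) was called by edgeR or DESeq2 with all libraries, 1 had an unadjusted p below 0.05, and 3 were called by edgeR without BMPR2 DELX 4. No cytokinesis gene was called in any other fit that left out 1 library. Racgap1, the GTPase activator of centralspindlin, had 98.0, 84.3, 98.5 and 67.7 CPM in BMPR2 DELX 1 to 4 and 73.6, 69.0, 79.4 and 64.7 CPM in ROSA 1 to 4. BMPR2 DELX 4 stood between ROSA 4 and ROSA 2, and the log2 fold change was 0.28 ± 0.12 (edgeR adjusted p 0.17), although a near-identical pseudogene sequence makes it uncertain. The midzone bundler Prc1 had 0.25 ± 0.14, the contractile ring scaffold Anln 0.20 ± 0.12 and the RhoA exchange factor Ect2 0.26 ± 0.19. In these 3 genes BMPR2 DELX 4 was lower than every ROSA library.

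The common proliferation markers were among the members that did not pass. Top2a, the DNA topoisomerase of chromosome condensation, had 247, 201, 218 and 144 CPM in BMPR2 DELX 1 to 4 and 158, 158, 179 and 152 CPM in ROSA 1 to 4. Mki67, the Ki-67 protein of mitotic chromosome surfaces, had 243, 232, 210.0 and 156 CPM in BMPR2 DELX 1 to 4 and 165, 169.9, 191 and 171 CPM in ROSA 1 to 4. In both genes BMPR2 DELX 1 to 3 were above every ROSA library and BMPR2 DELX 4 was below every one. The log2 fold changes were 0.32 ± 0.14 (edgeR adjusted p 0.19) for Top2a and 0.27 ± 0.13 (edgeR adjusted p 0.21) for Mki67. Foxm1, the transcription factor of G2/M genes, had 88.9, 89.5, 85.9 and 67.1 CPM in BMPR2 DELX 1 to 4 and 73.5, 70.8, 81.9 and 64.6 CPM in ROSA 1 to 4. BMPR2 DELX 4 lay just above ROSA 4, and the log2 fold change was 0.19 ± 0.10 (edgeR adjusted p 0.28). Without BMPR2 DELX 4 the values were 0.45 (edgeR adjusted p 0.022) for Top2a, 0.39 (edgeR adjusted p 0.024) for Mki67 and 0.28 (edgeR adjusted p 0.08) for Foxm1. In the 7 other fits that left out 1 library, Top2a and Mki67 were not called. Foxm1 was not called in any of the 8.

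**Figure D4:**
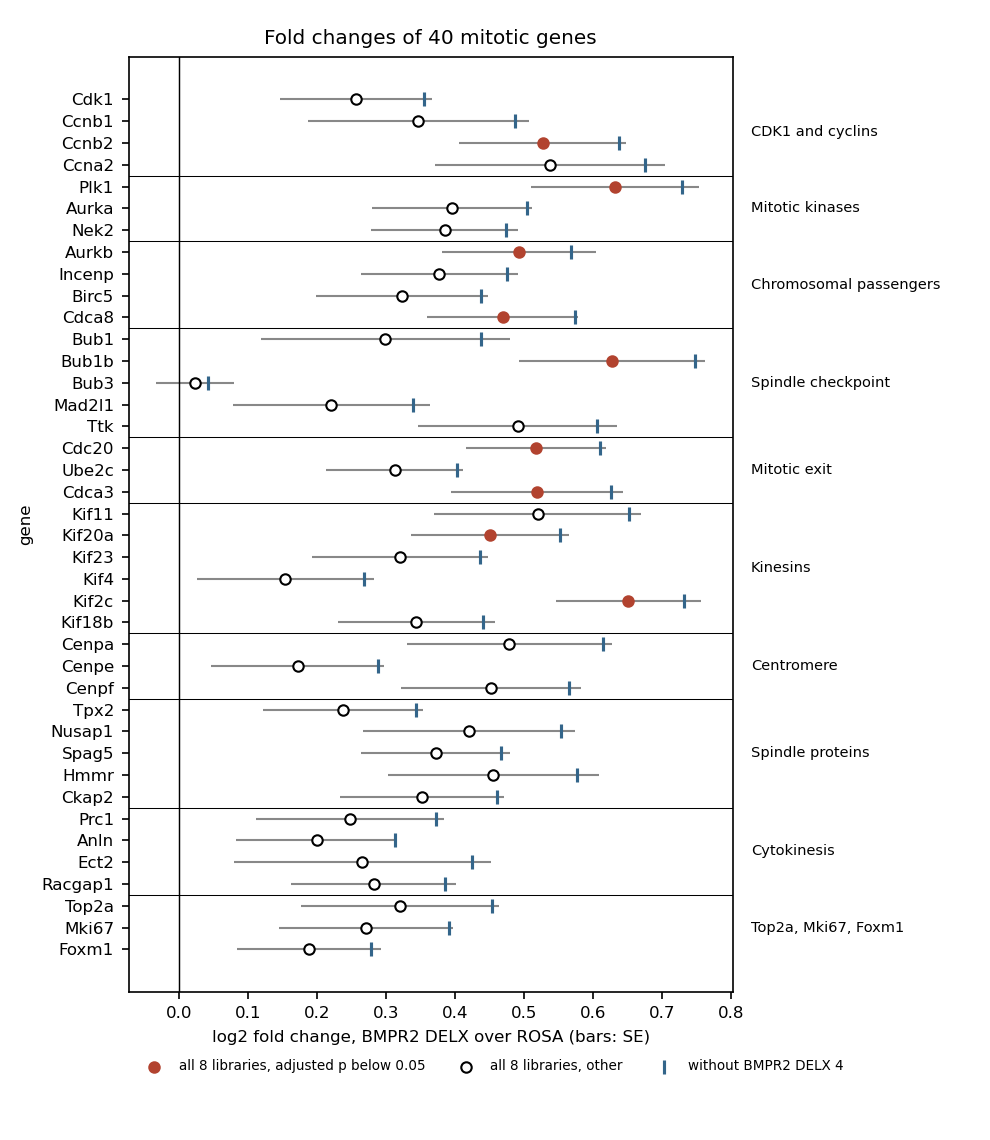
Log2 fold change of BMPR2 DELX over ROSA (points, bars are SE) for 40 mitotic genes by role, filled where the edgeR adjusted p is below 0.05, with the value without BMPR2 DELX 4 as a tick. All points lie above 0, Kif2c is highest at 0.65, and every tick lies to the right of its point.

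The 7 members not called even without BMPR2 DELX 4 were Bub1, Bub3, Mad2l1, Kif4, Cenpe, Ect2 and Foxm1. Per kilobase of annotated exon, the members' levels in ROSA spanned 2.60 CPM per kb for Cenpf to 31.4 for Cdc20, with a median of 9.27. Tpx2 followed Cdc20 with 26.0 CPM per kb, and then Ube2c with 21.7. The exon length joins all annotated isoforms, so these levels are low estimates for genes with long minor isoforms.

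A library's score is the mean log2 CPM of the 40 genes. It was 6.11, 5.92, 5.97 and 5.51 in BMPR2 DELX 1 to 4 and 5.48, 5.49, 5.68 and 5.44 in ROSA 1 to 4. BMPR2 DELX 1 to 3 scored above all controls and BMPR2 DELX 4 lay between ROSA 2 and ROSA 3. The group means were 5.88 ± 0.26 and 5.52 ± 0.11 (SD, n = 4), a difference of 0.36. Over the 31 members that were not called the score differed by 0.31. There BMPR2 DELX 4, at 5.58, was again within the ROSA range of 5.57 to 5.81, but lower in it. It lay below ROSA 1 (5.61), ROSA 2 (5.63) and ROSA 3, and above ROSA 4 only.

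Genes of the same pathway that are not among the 40 were read in the same fit. Of 62 other mitotic genes in the annotation, all of which were tested, 7 were called higher (11.3%, against 3.96% of all genes), 0 lower by edgeR, and 55 did not pass, with 59 positive fold changes and a median of 0.32. DESeq2 called 18 of them, and 28 had a raw edgeR p under 0.05. Without BMPR2 DELX 4, a fit singled out after its values were seen, edgeR called 26 of the 62 higher (41.9%, against 3.16% of all genes), with a median of 0.46. Counts from the other fits that left out 1 library are not given for this list. Cdc25b, the phosphatase that activates CDK1, had 27.8, 27.3, 20.7 and 20.3 CPM in BMPR2 DELX 1 to 4 and 11.8, 11.0, 15.2 and 16.1 CPM in ROSA 1 to 4. The groups did not overlap, and Cdc25b rose by 0.83 ± 0.16 (edgeR adjusted p 0.014). Pimreg, a mitotic substrate of the anaphase-promoting complex, rose by 0.69 ± 0.14 (edgeR adjusted p 0.017), and the securin gene Pttg1 by 0.46 ± 0.09 (edgeR adjusted p 0.02). Cdc25b and Pimreg were called in every fit without 1 library, and Pttg1 lost the call in 3 of 8. The score of this list was 4.91, 4.65, 4.73 and 4.26 in BMPR2 DELX 1 to 4 and 4.27, 4.27, 4.53 and 4.29 in ROSA 1 to 4, again lowest in BMPR2 DELX 4 and highest among controls in ROSA 3.

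Subunits of the anaphase-promoting complex with their regulators had a smaller median of 0.09 over 16 genes. Of these 1 was called higher (6.25%, near the 3.96% of all genes). It was Fzr1, the CDH1 activator of late mitosis and G1, which rose by 0.34 ± 0.07 (edgeR adjusted p 0.022) (call lost in 4 of 8 fits without 1 library). Genes of the DREAM and MYBL2 complexes, late E2F factors and NF-Y had a median of 0.12 over 16 genes, with 1 called higher (6.25%, near the 3.96% of all genes). That gene was Rbl2, the p130 protein of the DREAM complex that represses these promoters in resting cells, with 30.6, 26.5, 27.5 and 26.7 CPM in BMPR2 DELX 1 to 4 and 20.3, 21.3, 20.2 and 22.2 CPM in ROSA 1 to 4. All BMPR2 DELX libraries were above all ROSA libraries, BMPR2 DELX 4 included, and Rbl2 rose by 0.40 ± 0.07 (edgeR adjusted p 0.012), called in every fit without 1 library.

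G1/S and DNA replication genes had a median log2 fold change of 0.16 over 40 genes, beside 0.36 for the mitotic genes, and the difference between the lists was not tested. In that list 2 genes were called higher (5.0%, near the 3.96% of all genes) and 0 lower by edgeR, DESeq2 called 7, 14 reached an unadjusted p under 0.05, and 35 fold changes were positive. Without BMPR2 DELX 4, edgeR called 10 of the 40 higher, against 3.16% of all genes, and the median was 0.27. For these genes too, counts from the other fits that left out 1 library are not given. Dut, the deoxyuridine triphosphatase, had 31.5, 32.7, 29.4 and 25.9 CPM in BMPR2 DELX 1 to 4 and 19.8, 20.1, 24.3 and 20.2 CPM in ROSA 1 to 4. No libraries overlapped, and Dut rose by 0.50 ± 0.10 (edgeR adjusted p 0.016). Lig1, the replicative DNA ligase, rose by 0.44 ± 0.11 (edgeR adjusted p 0.038), with the call lost in 7 of 8 fits without 1 library. The score of this list was 5.09, 4.96, 4.91 and 4.62 in BMPR2 DELX 1 to 4 and 4.66, 4.68, 4.86 and 4.68 in ROSA 1 to 4, so BMPR2 DELX 4 was the lowest and ROSA 3 the highest control here too.

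**Figure D5:**
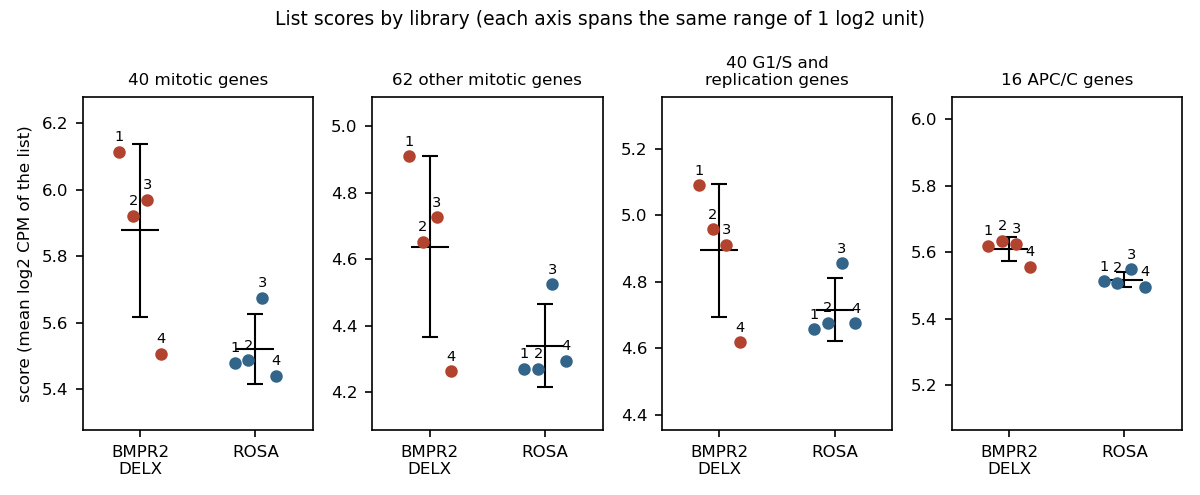
Score of each library (points, numbered by replicate; mean log2 CPM of the list) for 4 gene lists, with group mean and SD (bars, n = 4). In the lists of mitotic, other mitotic and G1/S genes BMPR2 DELX 4 lies below ROSA 3, the highest ROSA library, while the list of APC/C genes, the subunits and regulators of the anaphase-promoting complex, spans less.

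Cyclin D, G1 kinase and CDK inhibitor genes had no common direction, with 6 of 14 positive and a median of -0.07. With all libraries, edgeR called 2 of the 14 higher (14.3%, against 3.96% of all genes) and 0 lower. Cdkn1b, which encodes the CDK inhibitor p27, had 42.3, 30.9, 34.4 and 26.7 CPM in BMPR2 DELX 1 to 4 and 20.3, 23.0, 23.8 and 25.7 CPM in ROSA 1 to 4. All BMPR2 DELX libraries were higher than all ROSA libraries, and Cdkn1b rose by 0.53 ± 0.13 (edgeR adjusted p 0.039), with the call lost in 6 of 8 fits without 1 library. Cdkn2d, the p19 inhibitor of the INK4 family, rose by 0.54 ± 0.11 (edgeR adjusted p 0.018), with the call lost in 2 of 8. The other inhibitors did not pass. Values were negative for Cdkn1c, -0.74 (edgeR adjusted p 0.17), Cdkn2a, -0.60 (edgeR adjusted p 0.11), and Cdkn2b, -0.32 (edgeR adjusted p 0.24). Cdkn1a was nearly level, at -0.06 (edgeR adjusted p 0.79), and Cdkn2c was positive, at 0.21 (edgeR adjusted p 0.37). Cdkn1c was low in every library, at 1.72 CPM or less. Cdkn2a, the locus of p16 and ARF, had 9.82, 13.2, 9.28 and 18.1 CPM in BMPR2 DELX 1 to 4 and 19.8, 23.0, 16.9 and 16.9 CPM in ROSA 1 to 4. Here BMPR2 DELX 4 was the highest of its group, and without it Cdkn2a was called lower, at -0.83 (edgeR adjusted p 0.02). It was the 1 gene of this list called lower in that fit, which called 3.38% of all genes lower. Cdkn2a was not called in the 7 other fits that left out 1 library.

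Markers of other cell types were read in the same libraries, as unscaled CPM. The summed level of 10 macrophage markers ran from 25.4 to 38.0 CPM over the controls and from 41.8 to 73.3 CPM over the mutant libraries, with no overlap. Of these markers, 5 reached 1 CPM in at least 1 library, and the leukocyte gene Ptprc had at most 0.594 CPM. The sum was 52.3, 41.8, 73.3 and 53.3 CPM in BMPR2 DELX 1 to 4, and Cd68 was the 1 macrophage marker called, with a log2 fold change of 0.72 (edgeR adjusted p 0.024). The 12 endothelial markers together had 2277, 2314, 659 and 1316 CPM in BMPR2 DELX 1 to 4 and 1615, 2024, 1026 and 1595 CPM in ROSA 1 to 4, and 11 of the 12 reached 1 CPM. None (0) of the 11 that were tested was called by edgeR or DESeq2, and 0 had an unadjusted p below 0.05. Fibroblast markers summed to 11244 to 15509 CPM in BMPR2 DELX and 9436 to 11955 CPM in ROSA, and all 8 reached 1 CPM. The collagen gene Col3a1 was the 1 fibroblast marker called, with a log2 fold change of 1.25 (edgeR adjusted p 0.0013). Epithelial markers summed to 23.4 to 55.5 and 29.7 to 47.0 CPM, and 6 of 8 reached 1 CPM. The keratin gene Krt19, the largest part of the ROSA sums, had a log2 fold change of -1.12 (edgeR adjusted p 0.052), whereas Krt8 had 3.14 (edgeR adjusted p 0.08), Krt18 1.30 (edgeR adjusted p 0.13) and Pax8, the 1 called, 3.38 (edgeR adjusted p 0.047). The epithelial score, the mean log2 CPM of the 6 tested markers, was 1.74 to 2.75 in BMPR2 DELX 1 to 3 and 0.47 in BMPR2 DELX 4, and 1.07, 1.46, 0.02 and 0.95 in ROSA 1 to 4. BMPR2 DELX 4 was the lowest of its group in this score, as in the mitotic score, and ROSA 3, the highest control in mitotic score, was the lowest control. Lymphocyte markers summed to at most 0.416 CPM, with Cd2 at 0 counts in every library. The part of these other cells in the mitotic values was not tested.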

How the data were processed

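Polyadenylated RNA from 8 samples was sequenced, and the deposited files hold raw read counts per Ensembl gene with no normalization by the authors, whole numbers whose totals differ per library. Per the submitters' processing notes, STAR 2.5.2b, HTSeq and GRCm38 are named, without a role or an order. The annotation release and any filters are not given in the sources used here. The opposite-strand column was used, which held 93.4% of strand-assigned counts. Lines that name no gene, 14.7% to 22.0% of a library's reads, were left out. GENCODE M21 gave symbols and GRCm38 positions for 49326 of the IDs.

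Genes were kept with filterByExpr (14887), scaled by TMM and tested with edgeR 4.0.16 (quasi-likelihood, robust; R 4.3.3) with Benjamini-Hochberg adjustment over all genes; standard errors were derived from the fold change and its F statistic. Levels are TMM-scaled counts per 1000000 (CPM). Scores use a prior count of 2. DESeq2 1.42.0 and limma 3.58.1 voom were alternatives, with other factors, filters, the unstranded column, a replicate block and each library left out. A count of 0 allows up to 3 counts, or 0.0687 to 0.104 CPM, for counting error only. On data simulated for BMPR2 DELX against ROSA (14717 genes), the model called 23 of 67 planted changes of 0.5 on the log2 scale, 46 of 66 of 1 and 62 of 66 of 2, with 9.03% false calls. Each gene was drawn independently there, so these rates do not describe genes that vary together, as the members do. Copies of member transcripts were sought with blastn 2.17.0 (at least 95% identity over 400 bases), and 4 members had one. Promoters were taken from RefSeq.

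Members and lists were chosen with earlier results of these data known. Named in full were all called members, the smallest p of each role without a call, Mki67, Top2a, Cdk1, Ccnb1 and Foxm1, and up to 3 called genes of each other list. Figures were drawn with matplotlib 3.10.9.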

Additional observations from a re-analysis of the deposited data

Results flagged for a closer look

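In 9 of 82 sets of 4 libraries examined (40 genes and their score, in each group), 1 library stood far from the other 3, by Dixon's 95% criterion. Chance gives this in about 1 set in 20, and members vary together, so these are not separate events. All 9 concern BMPR2 DELX 4 as the lowest or ROSA 3 as the highest. BMPR2 DELX 4 was low for Plk1 (56.2 CPM, the others 75.1 to 76.2), Aurka (34.6 CPM, the nearest of the others 47.9), Cdca8 (32.3 CPM, the others 44.5 to 45.1) and Foxm1 (67.1 CPM, the others 85.9 to 89.5). ROSA 3 was high for Ccna2 (77.6 CPM, the others 58.5 to 61.7), Plk1 (55.4 CPM, the others 42.0 to 43.1), Aurka (38.6 CPM, the others 32.4 to 33.2), Aurkb (21.5 CPM, the others 17.4 to 17.9) and Kif18b (24.6 CPM, the others 20.4 to 21.1).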

How the results depend on the processing

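Calls over all genes, 1355 with all libraries, came to 2298 with DESeq2 and 172 without ROSA 1 and ROSA 2, a setting chosen after seeing the data, and to 477 to 1266 without 1 library. Upper-quartile factors turned the split of 589 higher and 766 lower into 734 and 606. Members called higher, 9 with all libraries, numbered 21 with DESeq2, 16 with no count filter, 0 without ROSA 1 and ROSA 2, and 1 to 33 without 1 library. They stayed within 1.5 times of 9 with relative log expression factors, upper-quartile factors, voom, the 1 CPM filter and the unstranded column. No member was called lower (0) under any of these settings, and 0 members had a negative fold change except Bub3, at -0.0037 without ROSA 4 (its range without 1 library was -0.0037 to 0.044). The median of the members, 0.36 with all libraries, ran from 0.29 to 0.47, and the score difference, also 0.36, from 0.29 to 0.48. The labels do not say whether numbers 1 to 4 pair the samples. Same-numbered libraries deviated from their group means with correlations of 0.005, 0.21, 0.24 and 0.09 over genes. Correlations of differently numbered libraries were not set beside these, so they do not decide whether the samples were paired. With the number as a replicate block, 13 members and 1245 genes were called, and the median was 0.35. Cdca3, Ccnb2 and Kif20a lost the call most often, in 6 of 8 fits without 1 library. Each member had at least 454 counts in every library.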
